A study of Rattus norvegicus with 8 samples.

Results

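The 40 genes examined here belong to glycolysis and to the cellular response to low oxygen, measured in adipose-derived mesenchymal stem cells (ASCs) of 2 rat strains. They were picked by name, with earlier results of these data known, as 22 glycolytic enzymes and transporters and 18 other hypoxia-inducible or regulatory genes. Counts of them set against all probes are therefore descriptive. Each gene was read from its brightest probe. A probe carrying the symbol was found for 35 of the 40 genes, among the 13337 genes named on the array, and none was found for Hk1, Pgam1, Egln1, Egln3 and Mxi1. Inguinal and interscapular fat of rats 8 weeks old was the source of the cells, of the strain Lewis/Jms (LEW), which rejects a liver graft acutely, or of the strain PVG, which comes to tolerate one. They were kept for 24 h or 48 h with PBS as control or with the bacterial endotoxin LPS at 1 µg/ml, which cells sense through TLR4. The labels name no arm with low oxygen. The RNA of 3 rats was pooled on each of the 8 Illumina RatRef-12 arrays, so that each strain and treatment had 2 arrays, 1 per time point, and the p-values measure the spread between those arrays and not between rats.

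In glycolysis, glucose enters through transporters of the Slc2a family, is trapped by hexokinase and is broken down by a chain of enzymes to pyruvate. Lactate dehydrogenase then makes lactate, which leaves the cell through monocarboxylate transporters. The genes of many of these steps are targets of hypoxia-inducible factor (HIF), a dimer of an oxygen-labile alpha subunit, encoded by Hif1a or Epas1, and a stable beta subunit. With oxygen, the prolyl hydroxylases of the Egln family mark the alpha subunit for destruction by the von Hippel-Lindau protein, and without it the dimer binds short hypoxia response elements with the core ACGTG or GCGTG. Macrophages stimulated with LPS are known to turn to glycolysis and to accumulate HIF-1α, whereas MSCs live in vivo in niches of low oxygen.

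The promoter windows of the genes, from 250 bases before to 50 after the start site, were taken from RefSeq (build GRCr8, the reference rat and not LEW or PVG) and were found for 35 of the 40 genes. Both cores were searched on both strands, ACGTG with its reverse complement CACGT and GCGTG with CACGC. The palindrome CACGTG holds ACGTG on both strands, and these matches overlap. ACGTG was present in 22 of 35 windows (62.9%), against 19.3% of all 33469 windows of this length. GCGTG was present in 45.7% against 29.7%, and either core in 71.4% against 41.6%. The 35 windows of these genes were also richer in G and C, with a median of 65.7% against 51.7%. By list, either core was present in 65.0% of the windows of glycolytic genes and in 80.0% of those of the other genes. The 250 bases up to the start site are shown, 5′ to 3′, for 5 genes that differed with LPS and, except for Aldoc, between strains, and that range from a stretch without a core to one with 5. Capitals mark the cores. The stretches lie at chr10:106712078-106712327 (plus strand) for Slc16a3, chr10:63715294-63715543 (plus strand) for Aldoc, chr10:38743644-38743893 (plus strand) for P4ha2, chr20:28437038-28437287 (minus strand) for Ddit4 and chr1:203154963-203155212 (minus strand) for Bnip3.
Slc16a3: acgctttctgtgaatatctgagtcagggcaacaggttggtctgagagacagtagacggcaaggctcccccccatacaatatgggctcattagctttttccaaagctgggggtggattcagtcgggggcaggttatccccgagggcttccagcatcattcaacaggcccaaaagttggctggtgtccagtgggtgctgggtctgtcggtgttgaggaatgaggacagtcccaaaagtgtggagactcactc
Aldoc: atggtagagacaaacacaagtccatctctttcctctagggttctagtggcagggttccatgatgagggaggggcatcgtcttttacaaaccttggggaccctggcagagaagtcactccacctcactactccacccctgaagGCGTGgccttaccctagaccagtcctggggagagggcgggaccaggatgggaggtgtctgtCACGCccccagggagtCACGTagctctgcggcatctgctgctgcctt
P4ha2: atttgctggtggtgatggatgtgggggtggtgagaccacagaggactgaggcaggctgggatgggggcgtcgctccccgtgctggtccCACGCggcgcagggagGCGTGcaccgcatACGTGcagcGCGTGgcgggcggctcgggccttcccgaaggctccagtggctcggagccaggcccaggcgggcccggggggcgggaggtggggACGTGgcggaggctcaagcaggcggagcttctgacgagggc
Ddit4: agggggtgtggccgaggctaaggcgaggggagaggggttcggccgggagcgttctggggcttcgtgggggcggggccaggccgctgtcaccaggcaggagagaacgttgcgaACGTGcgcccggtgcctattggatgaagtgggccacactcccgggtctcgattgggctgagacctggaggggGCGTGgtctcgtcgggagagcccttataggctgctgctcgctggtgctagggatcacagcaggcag
Bnip3: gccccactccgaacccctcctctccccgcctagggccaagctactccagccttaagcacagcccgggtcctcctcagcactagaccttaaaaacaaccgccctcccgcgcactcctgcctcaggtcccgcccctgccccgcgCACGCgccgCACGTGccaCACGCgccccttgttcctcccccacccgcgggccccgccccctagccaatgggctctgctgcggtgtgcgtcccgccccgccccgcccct
Bnip3 had 3 separate sites, the middle one a CACGTG, P4ha2 had 5, Aldoc had 3 and Ddit4 had 2. In the window of Slc16a3 neither core was present. A match is a string of letters, and no binding was measured here.

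The raw 75th percentile of the arrays lay between 123 and 153, and between 39.7% and 42.2% of the 22523 probes had a detection p under 0.05. All levels below are signals on a linear scale after each array was set to the same 75th percentile. Differences are on the log2 scale, as PVG minus LEW or LPS minus control, with the standard error (SE) of a limma fit of 9552 detected probes, and a probe passed at a Benjamini-Hochberg adjusted p under 0.05 over all of them. Of the 35 genes with a probe, 33 were fitted and 29 were detected on all 8 arrays. Slc2a1 and Pfkfb3 were undetected on every array and were not fitted. A signal near the background, which lay at about 75 to 87.3 as the lowest detected signal of each array, understates a difference.

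The defining markers were checked against the label of the cells. Vim, the intermediate filament gene of mesenchymal cells, was detected on all arrays at 3596 to 5752. Ptprc, which encodes the leukocyte antigen CD45, Cdh5, an endothelial cadherin gene, and Adipoq, the adipocyte hormone gene, were undetected on all 8. Other genes of those 3 lists were detected: Cd14 on all 8 arrays and, near the background, Cidec on 4, Itgam, Aif1 and Tek on 3 each, and Cd79b and Fabp4 on 1 each. Summed over the list of MSC and fibroblast markers, 8 of 10 with a probe, the signal was 22973 to 29917 in LEW and 29298 to 38880 in PVG. Its 8 genes went both ways, with 4 above and 4 below 0 and a median strain difference of 0.05: Col3a1, Itgb1 and Nt5e were higher in PVG and Pdgfra was lower. The 3 of 5 smooth muscle and pericyte markers with a probe summed to 255 to 520 in LEW and to 6242 to 13039 in PVG, mostly from Actg2, an actin gene, while the pericyte gene Rgs5 was undetected throughout. The 5 of 6 skeletal muscle markers with a probe summed to 575 to 2001 in LEW and to 3318 to 6304 in PVG, mostly from Acta1, with Ckm, Myog and Myh4 undetected. In pooled RNA, fewer cells of a type and less RNA per cell cannot be told apart, and the part of these markers in the strain differences below was not tested.

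LPS raised 6 of the 18 fitted glycolytic genes and 5 of the 15 other genes, and lowered 0, against 1.46% of all 9552 probes higher and 0.806% lower. The lactate exporter gene Slc16a3 rose 4.39-fold and the stress gene Ddit4 2.67-fold, and the hormone gene Stc1 rose as well, from a level that was undetected in PVG control ASCs. Between the strains, 11 of the 33 genes were lower in PVG, among them Slc16a3 (4.20-fold), Ddit4 (3.10-fold), Stc1 and Hif1a (2.31-fold), and 3 were higher in PVG, of which the mitophagy receptor gene Bnip3 differed most (2.09-fold), against 7.46% of all probes lower and 7.45% higher. The level of the enzyme gene Gapdh did not pass in either comparison.

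**Figure D1:**
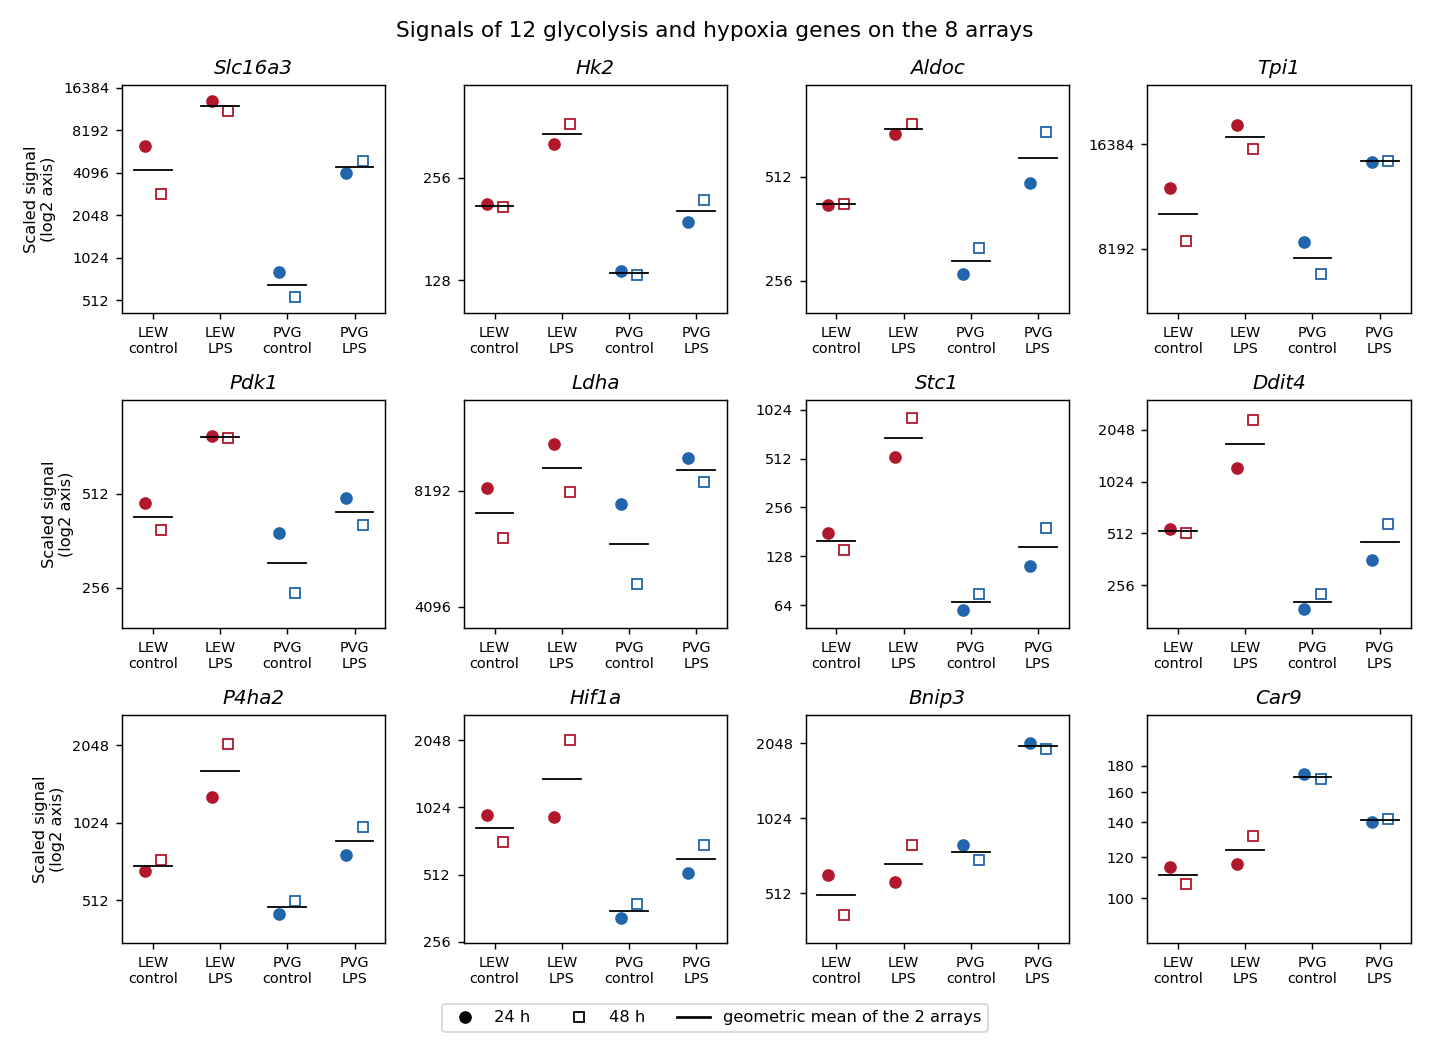
Scaled signals (log2 axis, a separate scale for each gene) of 12 of the genes on the 8 arrays, by strain and treatment; filled circles are 24 h, open squares 48 h, red is LEW, blue PVG, and lines are the geometric mean of the 2 arrays. Slc16a3 spans 539 to 13209, with its 2 lowest arrays in PVG control ASCs, and Bnip3 is highest on the 2 arrays of PVG with LPS.

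At the entry of glucose, Hk2, the hexokinase that is bound to mitochondria and inducible, was the gene that passed between strains and with LPS. The erythroid-type transporter gene Slc2a1 had signals of 78.6 and 62.7 in LEW control ASCs (24 h and 48 h, the order kept throughout), 79.6 and 76.8 in LEW with LPS, 59.3 and 77.6 in PVG control and 70.1 and 71.0 in PVG with LPS. All 8 of these were undetected and have no order. Slc2a3, the neuronal-type transporter gene, had 83.7 and 92.1 in LEW control, 97.4 and 105 in LEW with LPS, 79.8 and 100.1 in PVG control and 92.6 and 96.6 in PVG with LPS. It was detected on all arrays, close to the background, with overlap between strains and between treatments, and passed in no comparison. Hk2 had 214 and 209.5 in LEW control, 322 and 369 in LEW with LPS, 136 and 133 in PVG control and 190.2 and 219.6 in PVG with LPS. Within each strain both LPS arrays lay above both control arrays, and at each treatment both PVG arrays lay below both LEW arrays. Hk2 was lower in PVG (-0.70 ± 0.089 SE, adjusted p = 0.00109) and rose with LPS (0.65 ± 0.089, 1.57-fold, adjusted p = 0.00907).

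Of the enzymes that split the sugar, the liver-type phosphofructokinase and both aldolases rose with LPS. Pfkl, the liver-type enzyme, had 146 and 133 in LEW control, 191 and 169 in LEW with LPS, 133 and 107 in PVG control and 186 and 208 in PVG with LPS. All 4 LPS arrays lay above all 4 control arrays (0.54 ± 0.10, 1.46-fold, adjusted p = 0.0312). The muscle-type Pfkm had 199 and 218 in LEW control, 214 and 246 in LEW with LPS, 171 and 213 in PVG control and 225 and 268 in PVG with LPS, and with its control and LPS arrays overlapping, its LPS difference of 0.25 ± 0.11 did not pass. The platelet-type Pfkp had 1083 and 889.8 in LEW control, 1348 and 963 in LEW with LPS, 1086 and 1108 in PVG control and 1052 and 994 in PVG with LPS. The strains overlapped, as did the treatments, and both its strain and LPS differences were close to 0 (0.00 and 0.06).

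Aldoa, the aldolase of muscle and most tissues, had 3796 and 3636 in LEW control, 6012 and 4979 in LEW with LPS, 5236 and 4753 in PVG control and 6242 and 6771 in PVG with LPS. It was lowest in LEW control and highest in PVG with LPS, rose with LPS (0.47 ± 0.093, 1.39-fold, adjusted p = 0.0405) and was higher in PVG (0.34 ± 0.093, 1.26-fold, adjusted p = 0.0438). A second probe of Aldoa gave 0.29 ± 0.097 for LPS (adjusted p = 0.218) and 0.25 ± 0.097 for strain (adjusted p = 0.128). Aldoc, the brain-type aldolase, had 424 and 428 in LEW control, 683 and 728 in LEW with LPS, 268 and 318 in PVG control and 492 and 690.0 in PVG with LPS. Every LPS array lay above every control array (0.86 ± 0.12, 1.82-fold, adjusted p = 0.00976), and the lowest values were those of PVG control.

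Further down the pathway, the LPS response of Tpi1 passed and those of the enolases did not. Tpi1, which interconverts the triose phosphates, had 12290.5 and 8645 in LEW control, 18639.9 and 15882 in LEW with LPS, 8574 and 6960.1 in PVG control and 14563 and 14681 in PVG with LPS. All LPS arrays lay above all control arrays (0.83 ± 0.13, 1.78-fold, adjusted p = 0.0158). The ubiquitous enolase gene Eno1 had 325 and 200.02 in LEW control, 279 and 357 in LEW with LPS, 247 and 301 in PVG control and 344 and 359 in PVG with LPS, and its control and LPS arrays overlapped. Eno2, the enolase of neurons, had 1241 and 1172 in LEW control, 1848 and 1924 in LEW with LPS, 697 and 944 in PVG control and 1046 and 1431 in PVG with LPS. Within each treatment the PVG arrays lay below the LEW arrays (-0.60 ± 0.13, adjusted p = 0.0165), and within each strain the LPS arrays lay above the controls, with an LPS difference of 0.62 ± 0.13 that did not pass (adjusted p = 0.0523) but passed with the time point as a block (adjusted p = 0.00678).

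Ldha, which makes lactate from pyruvate, had 8332 and 6194 in LEW control, 10841 and 8131 in LEW with LPS, 7558 and 4684 in PVG control and 9939.5 and 8627 in PVG with LPS. In each of the 4 groups the 48 h array was the lower one. Its LPS difference of 0.51 ± 0.18 did not pass (adjusted p = 0.235) but passed with the time point as a block (adjusted p = 0.00958). Slc16a3, which encodes the monocarboxylate transporter MCT4 that exports lactate from glycolytic cells, had 6347 and 2893 in LEW control, 13209 and 11205 in LEW with LPS, 808 and 539 in PVG control and 4058 and 4938 in PVG with LPS. At each treatment and time PVG was the lower strain, and the PVG arrays with LPS lay within the range of the LEW control arrays. Slc16a3 was lower in PVG (-2.07 ± 0.24, adjusted p = 0.000652) and rose with LPS (2.13 ± 0.24, adjusted p = 0.00446). Slc16a1, which encodes MCT1, a transporter of lactate in both directions, had 232 and 217 in LEW control, 228 and 279 in LEW with LPS, 182 and 147 in PVG control and 176 and 183 in PVG with LPS. All 4 PVG arrays lay below all 4 LEW arrays (-0.47 ± 0.11, 1.39-fold, adjusted p = 0.0179), and its LPS difference was 0.15 ± 0.11.

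The remaining glycolytic genes, Gpi, Pfkfb4, Gapdh, Pgk1 and Pkm, passed in neither comparison, with LPS differences between 0.10 (Pfkfb4) and 0.59 (Pgk1). Gpi, which turns glucose 6-phosphate into fructose 6-phosphate, ranged from 5408 to 9117. Pkm, the pyruvate kinase gene, ranged from 87.9 to 128 on its 1 probe, close to the background. For both, all 4 LPS arrays lay above all 4 control arrays. Pfkfb4 was detected only on both PVG arrays with LPS, and Pfkfb3, another gene of the enzymes that set fructose 2,6-bisphosphate, had 54.8 to 66.2, undetected throughout. Gapdh, often used as a reference gene, ranged from 3256 to 4656 and differed by 0.00 ± 0.12 between strains and by 0.20 ± 0.12 with LPS (95% interval -0.07 to 0.46). Pgk1, which makes ATP in the payoff phase, ranged from 4344 to 12232, and its LPS difference passed with the time point as a block (adjusted p = 0.108 without and 0.0395 with it).

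**Figure D2:**
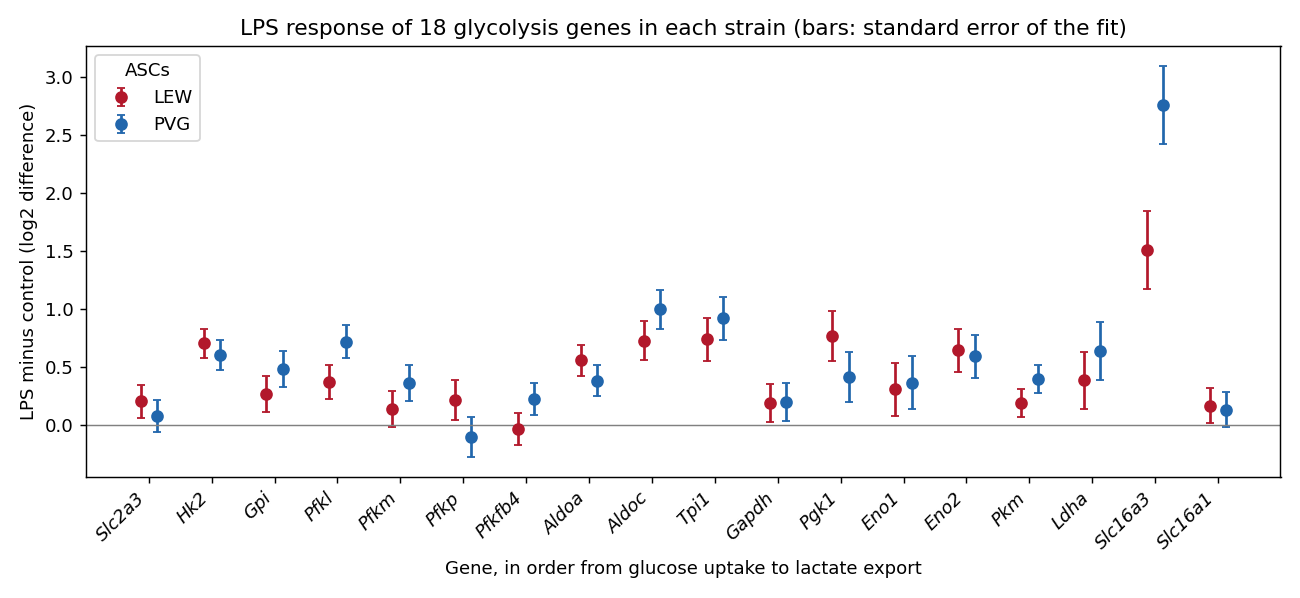
LPS minus control (log2 difference, points; bars are the SE of the fit, 2 arrays per group) for the 18 fitted glycolytic genes in pathway order, LEW in red and PVG in blue. Slc16a3 stands highest in both strains (1.51 and 2.76), and every other point lies above 0 except Pfkp in PVG (-0.10) and Pfkfb4 in LEW, where it was undetected on all 4 arrays.

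Of the HIF subunits, Hif1a was lower in PVG, and the strain difference of Epas1 did not pass. Hif1a had 949.6 and 717 in LEW control, 928 and 2042 in LEW with LPS, 328 and 379.7 in PVG control and 519 and 698 in PVG with LPS. All 4 PVG arrays lay below all 4 LEW arrays (-1.21 ± 0.23, adjusted p = 0.009), and the LEW array with LPS at 48 h stood above the rest. Its LPS difference of 0.75 ± 0.23 did not pass (adjusted p = 0.183) but passed with the time point as a block (adjusted p = 0.0434). Epas1, which encodes HIF-2α, had 66.9 and 73.0 in LEW control, 89.6 and 109 in LEW with LPS, 63.6 and 80.0 in PVG control and 94.6 and 105 in PVG with LPS. It was undetected on all 4 control arrays and detected on all 4 LPS arrays, which puts the LPS level at least 1.21-fold higher. Its adjusted p for LPS was 0.0642, and 0.006 when time was blocked. Epas1 entered the fit only through its LPS arrays, so these p-values are no independent support. Its strain difference was 0.02 ± 0.11. A fold against an undetected group was computed from the lowest detected signal of its arrays. The prolyl hydroxylase genes Egln1 and Egln3 were not measured by a named probe.

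The pyruvate dehydrogenase kinases, which inhibit pyruvate dehydrogenase, differed between strains for Pdk1. Pdk1 had 476 and 391 in LEW control, 784 and 770.3 in LEW with LPS, 384 and 247 in PVG control and 494 and 408 in PVG with LPS. At each treatment and time it was lower in PVG (-0.64 ± 0.15, adjusted p = 0.0206). The LPS arrays lay above the control arrays of the same strain (0.70 ± 0.15), short of the threshold at an adjusted p of 0.0521 and past it with the time point as a block (adjusted p = 0.00292). Pdk2 ranged from 148 to 197 and passed in no comparison.

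Bnip3, a mitophagy receptor that is a classical HIF target, was 1 of the 3 genes that were higher in PVG, with Car9 and Aldoa. It had 605 and 419 in LEW control, 566 and 801 in LEW with LPS, 801 and 696 in PVG control and 2042 and 1937 in PVG with LPS. The 2 PVG arrays with LPS stood far above the other 6, which overlapped. Bnip3 was higher in PVG (1.07 ± 0.15, adjusted p = 0.00184) and rose with LPS (0.92 ± 0.15, 1.89-fold, adjusted p = 0.0176). Car9, which encodes the carbonic anhydrase that acidifies the space outside hypoxic cells, had 115 and 107 in LEW control, 117 and 132 in LEW with LPS, 173 and 169.8 in PVG control and 140.1 and 142 in PVG with LPS. All 4 PVG arrays lay above all 4 LEW arrays (0.41 ± 0.083, 1.33-fold, adjusted p = 0.0112), with the highest levels in PVG control, and its LPS difference was -0.06 ± 0.083.

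Stc1, which encodes the calcium-regulating hormone stanniocalcin 1, had 178 and 141 in LEW control, 520.1 and 903 in LEW with LPS, 60.1 and 75.6 in PVG control and 111 and 191 in PVG with LPS. It was undetected on both PVG control arrays, and the PVG arrays with LPS lay near the LEW control arrays. Stc1 was lower in PVG (-1.73 ± 0.22, adjusted p = 0.00108, with 2 of 4 PVG arrays undetected) and rose with LPS (1.61 ± 0.22, adjusted p = 0.00881, with 2 of 4 control arrays undetected). Ddit4, an inhibitor of mTORC1 also named REDD1, had 544 and 513 in LEW control, 1233 and 2348 in LEW with LPS, 187 and 227 in PVG control and 357 and 581 in PVG with LPS. Only the PVG array with LPS at 48 h reached the range of LEW, at the level of its controls (-1.63 ± 0.22, adjusted p = 0.00142), and within each strain the LPS arrays were the higher ones (1.42 ± 0.22, adjusted p = 0.015).

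P4ha2, a subunit of the prolyl 4-hydroxylase of collagen, had 667 and 732 in LEW control, 1283 and 2062 in LEW with LPS, 453 and 509 in PVG control and 766 and 986 in PVG with LPS. All LPS arrays lay above all control arrays (1.04 ± 0.16, 2.05-fold, adjusted p = 0.0133), and PVG was lower at each treatment and time (-0.72 ± 0.16, adjusted p = 0.0153). Ndrg1, a stress-responsive gene of growth arrest, had 202 and 176 in LEW control, 331 and 323 in LEW with LPS, 190.1 and 182 in PVG control and 264 and 228 in PVG with LPS. All 4 LPS arrays lay above the 4 control arrays (0.60 ± 0.09, 1.51-fold, adjusted p = 0.0133), while the strain difference of -0.22 ± 0.09 did not pass.

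Higd1a, a mitochondrial survival gene of hypoxic cells, had 114 and 94.4 in LEW control, 138 and 107 in LEW with LPS, 67.5 and 76.3 in PVG control and 95.8 and 88.1 in PVG with LPS. It was undetected on both PVG control arrays, and only the LEW control array of 48 h lay within the range of PVG (-0.47 ± 0.11, adjusted p = 0.0259). Ero1a, an oxidase of the endoplasmic reticulum, had 137 and 104 in LEW control, 179.5 and 178 in LEW with LPS, 89.1 and 107 in PVG control and 114 and 119 in PVG with LPS. It was lower in PVG (-0.45 ± 0.11, adjusted p = 0.0266), with the clearest gap under LPS, and its LPS difference was 0.42 ± 0.11 (adjusted p = 0.117). The other 3 genes, Stc2, P4ha1 and Bhlhe40, passed in no comparison without the time block, and P4ha1 and Bhlhe40 passed between strains with it (adjusted p = 0.044 and 0.0292). Their ranges were 84.8 to 128, 1536 to 2479 and 999 to 1645.

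Counted over the 33 fitted genes, LPS against control over both strains gave 11 higher and 0 lower at an adjusted p under 0.05. The shares of all 9552 probes were 1.46% higher and 0.806% lower. The genes were chosen with earlier results known, so these counts describe the list and are no independent test. At an unadjusted p under 0.05 limma gave 22 higher and 0 lower, against 6.04% and 6.66% of all probes. Blocking on the time point gave 17 higher and 0 lower, against 6.12% of all probes in either direction. The median LPS difference was 0.47 for the 33 genes and -0.01 for all probes, and 31 of 33 were above 0. By list, the median was 0.42 with 18 of 18 above 0 for the glycolytic genes (Pfkfb4, undetected on 6 arrays, among them), and 0.49 with 13 of 15 above 0 for the others. In matched arrays of the same strain and time, 20 of 33 genes were higher with LPS in 4 of 4 pairs. None was lower, against 12.3% higher and 14.8% lower of all probes. Epas1 and Pfkfb4 entered the fit only through LPS arrays, so their place in the counts above adds no support. The summed signal of the leukocyte and macrophage markers, 6 of 8 with a probe, was 569 to 647 on control arrays and 710.2 to 854 with LPS. Of this, Cd14, an LPS co-receptor gene, had 207 to 271 and 322 to 489. Ptprc and Cd3e were undetected, Cd79b was detected on 1 array, and Itgam and Aif1 on 3 each. The mean signal of Aif1 was 68.2 in LEW and 83.8 in PVG. The part of these markers in the result was not tested.

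Single arrays changed the LPS calls over both strains. Without the PVG control array of 48 h none of the 11 passed (adjusted p from 0.0685 to 0.129), and without that of 24 h Slc16a3 was the gene that still passed among the 11 (0.06 to 0.124 for the other 10). Without the LEW control array of 48 h Aldoa, Bnip3, Ddit4, Ndrg1 and Pfkl were lost (0.0513 to 0.137), without PVG with LPS at 24 h Aldoa, Bnip3, Ndrg1, Pfkl and Tpi1 (0.0551 to 0.0959), and at 48 h Aldoa, Bnip3, P4ha2, Pfkl and Tpi1 (0.0537 to 0.171). Aldoa and Pfkl were lost without the LEW control array of 24 h (0.0743 to 0.106), and Aldoa without LEW with LPS at 24 h (0.0547). Aldoa was also lost under both background corrections, under an intensity trend and with the mean of its probes.

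Within each strain, fewer genes passed. In LEW, Stc1 (2.11 ± 0.31, 4.33-fold, adjusted p = 0.0269) and Ndrg1 (0.80 ± 0.13, 1.74-fold, adjusted p = 0.0374) rose, 2 of 33 against 0.534% of all probes, and 0 fell against 0.115%. At an unadjusted p under 0.05 limma gave 16 higher and 0 lower in LEW, against 4.85% and 4.92% of all probes. In PVG, Slc16a3 (2.76 ± 0.34, 6.78-fold, adjusted p = 0.0154) and Bnip3 (1.41 ± 0.21, 2.66-fold, adjusted p = 0.0374) rose, 2 of 33 against 0.283%, and 0 fell against 0.0314%, with 19 higher and 1 lower at an unadjusted p under 0.05, against 3.47% and 3.87% of all probes. With the time point as a block 12 genes passed in LEW, against 3.52% of all probes, and 10 in PVG, against 1.8%, all of them higher with LPS. Those added in both strains were Hk2, Aldoc, Tpi1, P4ha2 and Ddit4. In LEW, Aldoa, Eno2, Slc16a3, Pdk1 and Epas1 were added, of which Epas1 entered the fit only through LPS arrays. In PVG, Pfkl, Ldha and Stc1 were added. In LEW both calls were lost without either LEW control or either PVG control array (adjusted p from 0.0862 to 0.241), and Ndrg1 also without LEW with LPS at 48 h (0.131) and without either PVG array with LPS (0.0537). In PVG both calls were lost without any 1 of the 4 PVG arrays (0.0528 to 0.278).

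Between strains over all arrays, 3 of the 33 genes were higher in PVG and 11 lower, against 7.45% and 7.46% of all probes. These counts, too, describe a list chosen with earlier results known. The glycolytic genes gave 1 higher (Aldoa) and 4 lower (Hk2, Eno2, Slc16a3 and Slc16a1) of 18, and the others 2 higher (Bnip3 and Car9) and 7 lower (Pdk1, Stc1, Hif1a, P4ha2, Ddit4, Higd1a and Ero1a) of 15. The median strain difference was -0.22 for the 33 genes and -0.01 for all probes; it was -0.08 for the glycolytic genes and -0.35 for the others. At the same treatment and time, 16 genes were lower in PVG in 4 of 4 pairs and 4 were higher, against 19.8% and 20.1% of all probes. With the time point as a block 18 genes passed, against 23.4% of all probes in either direction, the added ones being Aldoc (-0.41 ± 0.12, adjusted p = 0.0523 without and 0.0109 with the block), Tpi1, P4ha1 and Bhlhe40, all lower in PVG.

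Hk2, Slc16a3, Bnip3, Stc1 and Ddit4 passed between strains without each array in turn. Of the other calls, 6 were lost without the LEW control array of 24 h (Aldoa, Eno2, Ero1a, Higd1a, Pdk1 and Slc16a1, adjusted p from 0.0515 to 0.0912), 6 without PVG control at 24 h (Aldoa, Eno2, Ero1a, Hif1a, Higd1a and P4ha2, 0.0675 to 0.121) and 6 without PVG with LPS at 24 h (Aldoa, Eno2, Ero1a, Higd1a, P4ha2 and Slc16a1, 0.0573 to 0.0926). A further 5 were lost without PVG with LPS at 48 h (Aldoa, Ero1a, Higd1a, Pdk1 and Slc16a1, 0.0527 to 0.143), 4 without PVG control at 48 h (Aldoa, Higd1a, P4ha2 and Slc16a1, 0.0533 to 0.0607), 3 without LEW control at 48 h (Aldoa, Car9 and P4ha2, 0.0554 to 0.141) and 2 without LEW with LPS at 48 h (Aldoa and Ero1a, 0.0512 to 0.143). Background correction, an intensity trend and the mean of its probes each ended the call of Aldoa. A 2-way analysis of variance in strain and treatment on the same probes, without moderation of the variances, passed Hk2 and Car9 between strains and no gene in any other comparison.

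In control ASCs, which show the strain difference without LPS, Hk2 (-0.65 ± 0.13, adjusted p = 0.017), Slc16a3 (-2.70 ± 0.34, 6.49-fold, adjusted p = 0.00194), Stc1 (adjusted p = 0.049) and Ddit4 (-1.36 ± 0.31, 2.56-fold, adjusted p = 0.0332) were lower in PVG and Car9 (0.63 ± 0.12, 1.55-fold, adjusted p = 0.014) was higher. Because Stc1 was undetected on both arrays of PVG, its LEW level was at least 1.96-fold that of PVG. These were 1 higher and 4 lower of 33, against 3.63% and 3.31% of all probes. In LPS-treated ASCs, Hk2 (-0.75 ± 0.13, adjusted p = 0.0101), Slc16a3 (-1.44 ± 0.34, 2.72-fold, adjusted p = 0.0409), Stc1 (-2.23 ± 0.31, 4.70-fold, adjusted p = 0.00392), P4ha2 (-0.90 ± 0.22, 1.87-fold, adjusted p = 0.0484) and Ddit4 (-1.90 ± 0.31, 3.74-fold, adjusted p = 0.0086) were lower in PVG, and Bnip3 (1.56 ± 0.21, 2.95-fold, adjusted p = 0.00341) was higher. These were 1 higher and 5 lower, against 2.93% and 3.12%. When time was blocked, 10 genes passed in control ASCs, against 12.7% of all probes, and 11 in LPS-treated ASCs, against 12.4%. Aldoc, Eno2, Hif1a, P4ha2 and Higd1a were added in control ASCs, and Eno2, Pdk1, Hif1a, Ndrg1 and Ero1a in LPS-treated ASCs, all lower in PVG.

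Slc16a3 in control ASCs and Bnip3 and Stc1 in LPS-treated ASCs passed without each array in turn. The other 4 calls in control ASCs were each lost without any 1 of the 4 control arrays (adjusted p from 0.0509 to 0.306), and Stc1 and Ddit4 also under quantile normalization (0.0665 and 0.0526). In LPS-treated ASCs, P4ha2 was lost without every array but LEW with LPS at 24 h (0.07 to 0.298, with a difference of -0.56 without LEW with LPS at 48 h), and Slc16a3 without either LPS array of either strain or either PVG control array (0.0637 to 0.228). Hk2 was lost without LEW with LPS at 48 h (0.065) and Hk2 and Ddit4 without PVG with LPS at 24 h (0.0606 to 0.0989 for these). Slc16a3 and P4ha2 were also lost under quantile normalization.

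**Figure D3:**
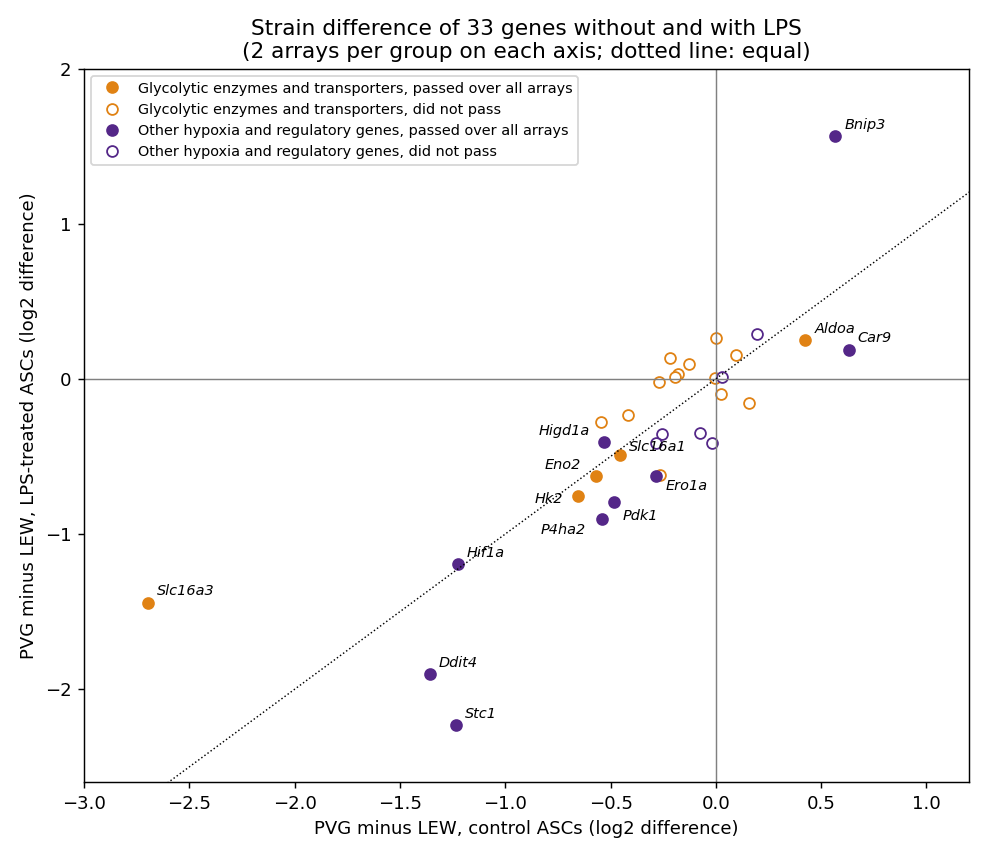
PVG minus LEW (log2 difference) of the 33 fitted genes in control ASCs (horizontal) and in LPS-treated ASCs (vertical), which share no array; filled points passed over all arrays, orange is glycolysis, purple the other genes, and the dotted line marks equal differences. Slc16a3 lies above the line (-2.70 and -1.44), Ddit4 below it (-1.36 and -1.90) and Bnip3 in the upper right (0.57 and 1.56), while the horizontal positions of Stc1, Higd1a, Epas1 and Pfkfb4 rest on PVG control arrays on which these genes were undetected. Epas1 and Pfkfb4 were undetected on the LEW control arrays as well, and Pfkfb4 also on the LEW arrays with LPS, on which its vertical position rests.

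Whether the strains differed in their response to LPS was tested as the interaction, and 0 of the 33 genes passed by limma, against 0.0314% of all probes in either direction. At an unadjusted p under 0.05 limma gave 2 genes with a positive difference of response (PVG minus LEW) and 2 with a negative one, against 1.33% and 1.32% of all probes, and 0 passed when the time point was blocked. Wide differences of response were those of Slc16a3 (1.26 ± 0.48, 95% interval 0.17 to 2.34) and Bnip3 (1.00 ± 0.30, 0.32 to 1.67), each with an adjusted p of 0.999. Stc1 rose 4.33-fold in LEW, and in PVG, where its control level was undetected, it was at least 1.80-fold higher with LPS (adjusted p = 0.295), so that no difference of response is given. For Hk2 it was -0.10 ± 0.18 (-0.51 to 0.30). The interval of Hk2 leaves room for a larger response in either strain. Those of Slc16a3 and Bnip3 lie above 0, but they are not adjusted for the number of genes, and these genes were named for their wide differences. A p that misses the threshold does not show equal responses.

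Between 24 h and 48 h, Ldha was the gene that changed. It fell by 0.43 ± 0.094 on the log2 scale from 24 h to 48 h (adjusted p = 0.0317), 1 lower and 0 higher of 33, against 2.6% and 1.33% of all probes. At an unadjusted p under 0.05 limma gave 5 genes higher and 4 lower at 48 h, against 8.12% and 9.48% of all probes. The call of Ldha was lost without either LEW control array (adjusted p = 0.097), without either PVG control array (0.127) and under neqc. Ddit4 had the widest difference in the other direction, 0.46 ± 0.14 (adjusted p = 0.129).

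Set side by side at single time points, with 1 array per group and no test, LPS was at least 1.5-fold higher for 10 of 33 genes in LEW at 24 h (1.8% of all probes) and for 8 in PVG (1.88%), and at 48 h for 15 in LEW (4.45%) and 15 in PVG (2.31%). No gene was at least 1.5-fold lower with LPS on any of these pairs, against 1.71% and 2.27% of all probes at 24 h and 3.4% and 1.18% at 48 h in LEW and PVG. Hif1a in LEW had an LPS difference of -0.03 at 24 h and of 1.51 at 48 h, and Bnip3 in LEW had -0.10 and 0.93. Of the strain differences in control ASCs, 9 genes were at least 1.5-fold lower in PVG at 24 h (4.76%) and 1 higher (5.81%), and at 48 h 6 were lower (5.73%) and 3 higher (4.69%). In LPS-treated ASCs 9 were lower at 24 h (4.09%) and 1 higher (3.42%), and 10 lower at 48 h (7.38%) and 1 higher (5.88%).

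**Figure D4:**
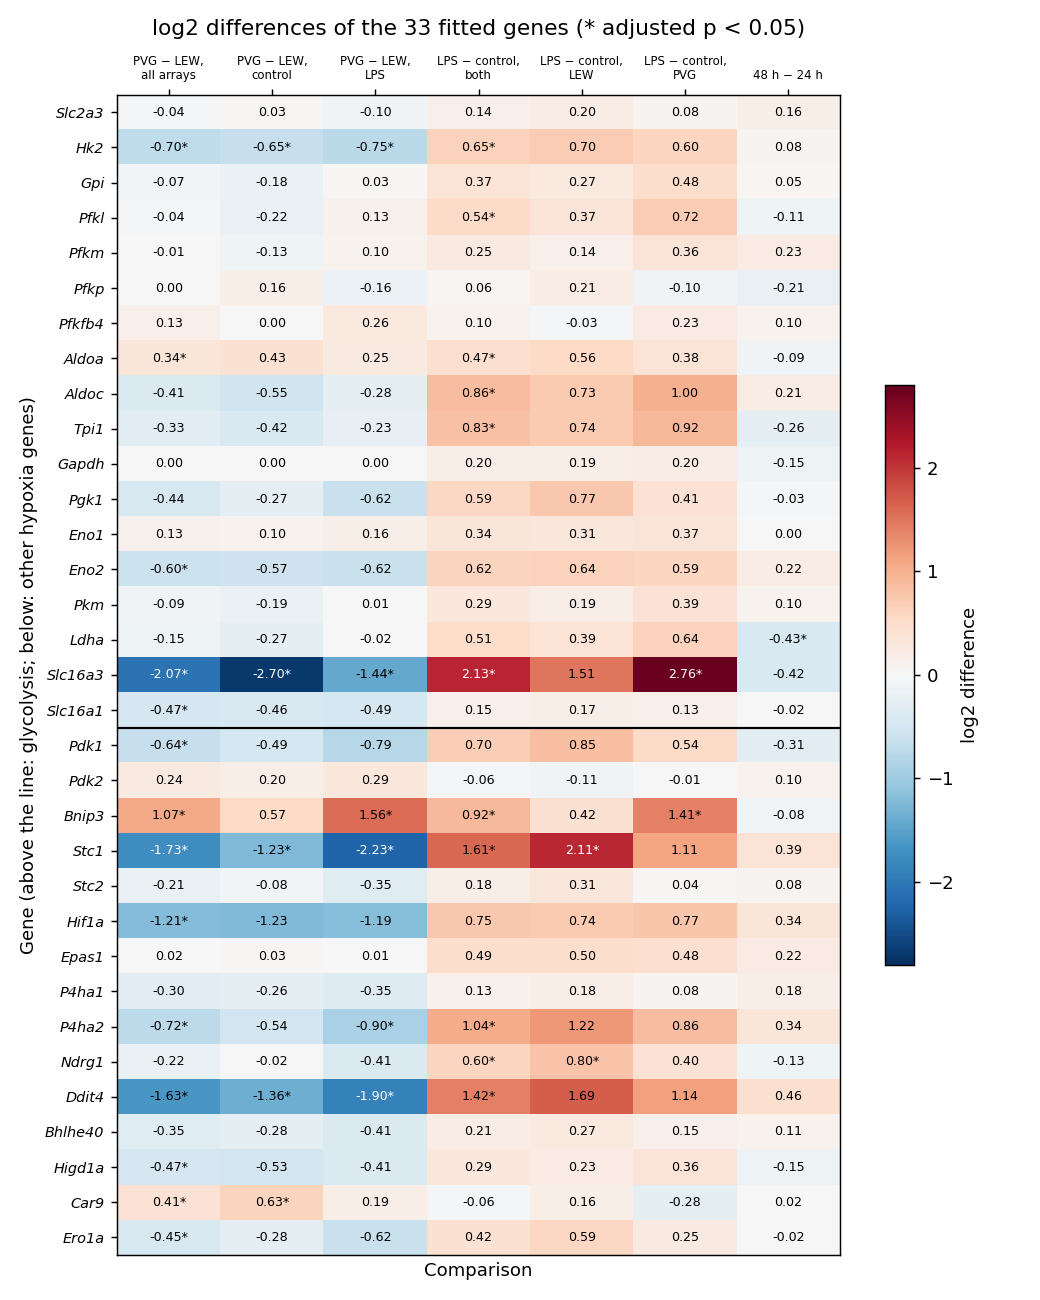
log2 differences of the 33 fitted genes (rows; glycolysis above the line) in 7 comparisons (columns), with the value in each cell and an asterisk where the adjusted p was under 0.05. The column of LPS over both strains is positive for 31 of 33 genes, and the column of strain over all arrays negative for 24 of 33.

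Other genes of the same pathways were counted for context. Of 18 other HIF regulators and targets fitted, 9 were lower and 4 higher in PVG over all arrays, against 7.46% and 7.45% of all probes. The 4 higher ones were Cited2, Plod2, Loxl2 and Pgf. In control ASCs 4 were lower and 2 higher, against 3.31% and 3.63%, and in LPS-treated ASCs 9 were lower and 0 higher, against 3.12% and 2.93%. Hmox1, which breaks down haem, was lower in PVG (-1.71 ± 0.16, adjusted p = 0.000178), as were the vasodilator peptide gene Adm (-1.78 ± 0.18, adjusted p = 0.00031), the adenylate kinase gene Ak4 (-1.35 ± 0.21, adjusted p = 0.00315) and Vhl, which encodes the von Hippel-Lindau protein (-0.51 ± 0.082, adjusted p = 0.00382). LPS raised 5 of these 18 genes and lowered 0 by limma (9 higher and 1 lower at an unadjusted p under 0.05, against 6.04% and 6.66% of all probes), against 1.46% and 0.806%, among them Angptl4, an inhibitor of lipoprotein lipase (1.32 ± 0.18, adjusted p = 0.00966), Ak4 (1.49 ± 0.21, adjusted p = 0.00988), Adm (1.02 ± 0.18, adjusted p = 0.0251) and the lysyl oxidase gene Lox (0.43 ± 0.087, adjusted p = 0.0418). Angptl4 was detected on the 4 LPS arrays (91.5 to 338.5) and undetected on the control arrays (52.6 to 70.1). It entered the fit only through LPS arrays, so its p-value and its place in these LPS counts add no support.

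Among 7 other glycolytic isoenzymes and regulators fitted, 1 was lower and 0 higher in PVG, against 7.46% and 7.45% of all probes. The gene was Bpgm, which makes 2,3-bisphosphoglycerate (-1.17 ± 0.11, adjusted p = 0.000254). With LPS 0 passed by limma, against 1.46% of all probes higher and 0.806% lower. At an unadjusted p under 0.05 limma gave 1 lower with LPS, against 6.66% of all probes. Of 20 genes of pyruvate dehydrogenase and the TCA cycle, LPS changed 0 by limma. The LPS difference was below 0 for 16 of 20, with a median of -0.09 against -0.01 for all probes. At an unadjusted p under 0.05 limma gave 0 higher and 4 lower, against 6.04% and 6.66% of all probes. Between strains 2 of the 20 were higher in PVG and 1 lower, near the 7.45% and 7.46% of all probes. Pdk3, another kinase of pyruvate dehydrogenase, was lower (-0.56 ± 0.11, adjusted p = 0.00933). Pdp2, the opposing phosphatase (0.31 ± 0.08, adjusted p = 0.0306), and Ogdh, of the TCA cycle (0.49 ± 0.13, adjusted p = 0.0402), were higher. Of 7 glycogen and sugar phosphate genes, 1 was higher with LPS, against 1.46% of all probes, and 1 lower in PVG, against 7.46%. In both cases it was Pygl, the liver-type glycogen phosphorylase. It rose with LPS (0.75 ± 0.15, adjusted p = 0.0449) and was lower in PVG (-0.69 ± 0.15, adjusted p = 0.0177). Of 3 pentose phosphate genes fitted, 0 passed in these comparisons. At an unadjusted p under 0.05 limma gave 1 lower with LPS, against 6.66% of all probes. Between strains it gave 0 at that p, where 13.8% of all probes were higher and 14.4% lower.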

How the data were processed

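Total RNA of ASCs was hybridised to 8 Illumina RatRef-12 arrays, 1 for each strain, treatment and time, each carrying RNA pooled from 3 rats. The deposited table holds bead-summary intensities on a linear scale and a detection p-value per probe and array, neither background-subtracted nor normalized by the authors; the summary software is not given in the sources used here. The other deposited table gives intensities quantile-normalized by the authors, judged from its values, on a linear scale and not centred, and was used as an alternative. Each array was set to the same 75th percentile and log2 transformed above a floor of 16, below which no value lay. A probe was kept if 1 group or more had detection p-values under 0.05 on its 2 arrays (9552 of 22523). Group means were fitted with limma 3.58.1 in R 4.3.3 (4 residual degrees of freedom), the time contrast with time added (3 degrees of freedom), and p-values were adjusted by Benjamini-Hochberg over all kept probes. The 24 h and 48 h arrays are the 2 arrays of a group. Time shifted the groups together (correlation of the 48 h minus 24 h differences between groups 0.220 to 0.463 over 9552 probes), so time also served as a block. Python 3.11.15 was used for promoter matches and figures. The fits were tested on simulated data.

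Gene names came from the platform annotation (13793 probes with and 8730 without a symbol), updated by entrez ID or accession, and each gene was read from its brightest probe. Values on all arrays are given for members that passed in any of 8 contrasts, for the HIF subunits and prolyl hydroxylases and for paired isoenzymes, other members by range, and at most 4 passing genes of each further list by smallest p. The number of arrays limits the precision. The members and lists were chosen with earlier results of these data known.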

Additional observations from a re-analysis of the deposited data

Results flagged for a closer look

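For Pfkp and Car9, LPS minus control was above 0 in LEW and below 0 in PVG at both times. For Pfkp, the LPS difference was 0.21 in LEW and -0.10 in PVG, a difference of response of -0.32 (adjusted p of the limma interaction = 0.999). For Car9 it was 0.16 in LEW and -0.28 in PVG, a difference of response of -0.44 (95% interval -0.82 to -0.07, adjusted p = 0.999). That interval is not adjusted for the number of genes, and Car9 was named because its responses had opposite signs. Across time, the strain difference of Gapdh was -0.15 at 24 h and 0.15 at 48 h, a difference of 0.31 that was not tested. The LPS difference of Slc16a1 was -0.04 at 24 h and 0.34 at 48 h, a difference of 0.38 that was not tested.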

How the results depend on the processing

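No difference of a gene that passed changed direction under any alternative run. Of the 33 genes, 14 passed between strains, 5 between strains in control ASCs, 6 in LPS-treated ASCs, 11 with LPS, 2 with LPS in LEW, 2 in PVG and 1 with time. With the time point as a block these counts were 18, 10, 11, 17, 12 and 10 for the first 6 comparisons, and the block ended no call. A 2-way analysis of variance in strain and treatment without moderation gave 2 between strains (4.87% of all probes) and 0 in each other comparison. In control ASCs, quantile normalization and the authors' normalized table each gave 3 (6.64% and 6.61% of all probes fitted in each run). With LPS in LEW, normexp gave 5 (0.848%), no detection filter 7 (0.773%) and an intensity trend 4 (0.942%). Detection on all 8 arrays, which leaves out members, gave 0 there (0.214%). No detection filter gave 5 with LPS in PVG (0.471%) and 3 with time (3.2%), where neqc gave 0 (2.96%). Leaving out 1 array at a time gave 8 to 16 between strains, 1 to 6 in control ASCs, 2 to 8 in LPS-treated ASCs, 0 to 15 with LPS, 0 to 6 with LPS in LEW, 0 to 6 in PVG and 0 to 2 with time. The share of all probes that passed moved as well, from 8.91% to 19.0% between strains, 2.65% to 8.78% in control ASCs, 2.43% to 10.4% in LPS-treated ASCs, 0.304% to 5.05% with LPS, 0.147% to 3.2% in LEW, 0.0628% to 1.1% in PVG and 1.78% to 4.19% with time. The cause of these shifts was not tested. The interaction gave 0 in every alternative run. With 2 arrays of pooled RNA per group, a lone array was assumed to vary like the other groups, and genes near the background have compressed differences.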
